A study of Mus musculus with 4 samples.

Results

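Chemokines and chemokine receptors were described in bulk RNA sequencing of mouse liver tumours, in 4 libraries. The genes were chosen by symbol: the ligand families Ccl, Cxcl, Xcl and Cx3cl and the receptor families Ccr, Cxcr, Xcr, Cx3cr and Ackr, each followed by a number and at most 1 letter, with 10 or more reads summed over the libraries. This gave 52 genes, 31 ligands and 21 receptors, of 60 genes with such symbols and of 21127 genes with 10 or more reads. Of the 8 left out, 6 had 0 reads in every library (Ccl19, Ccl21a, Ccl21b, Ccl26, Ccl27b and Cxcr1) and 2 had fewer than 10 reads. Ccl28 had 0 and 0 reads in AKK 1 and AKK 2 against 3 and 6 in PBS 1 and PBS 2, and Cxcl15 had 1 and 1 against 0 and 0. Ccl19, Ccl21 and Ccl27 genes have near-identical copies in the mouse genome, and reads that map to several places are not in gene counts of this kind, so their counts are uncertain.

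AKK 1 and AKK 2 are tumours of C57BL/6 mice fed 5000000000 colony-forming units of Akkermansia muciniphila (Akk), a mucin-degrading gut bacterium. PBS 1 and PBS 2 are tumours of C57BL/6 mice given phosphate-buffered saline instead. Feeding began 2 weeks before a methionine- and choline-deficient (MCD) diet, which produces fatty liver, and went on through its 2 weeks. All animals of both groups had that diet and RIL-175 cells, mouse hepatoma cells that carry luciferase, implanted in the liver. Feeding stopped for 6 days after surgery and was then resumed to the end. The tumours are therefore implants of 1 cell line in a host with its own immune cells. The labels call both libraries of a group biological replicates without saying that they come from separate mice, so a p-value here covers only the spread among these 4 samples, which may be technical. Each library is called a tumour below for short. The deposited tables are named by different patterns in the AKK and PBS groups. If the patterns mark cohorts, the effect of a cohort and that of feeding cannot be told apart.

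Chemokines are small secreted proteins that attract leukocytes along a gradient by binding receptors that span the membrane and signal through G proteins. They are named by the spacing of their first cysteines (CC, CXC, C and CX3C). Inflammatory members recruit monocytes, neutrophils and effector T cells, and homeostatic members place lymphocytes in tissues. Atypical receptors bind chemokines without G protein signalling and remove or store them. In liver tumours the axis of CCL2 and CCR2 is known for bringing in monocytes, CXCR2 for neutrophils, and CXCR3 with its ligands for T cells.

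The libraries held 55360237 and 59027227 reads on genes in AKK 1 and AKK 2 and 52500328 and 48912489 in PBS 1 and PBS 2. Values are CPM, counts relative to library size, scaled by TMM, a method that sets library sizes on the bulk of genes. The count of 3 reads that an observed 0 allows is worth 0.0514 to 0.0631 CPM, counting error only. The 7 markers of epithelial tumour cells summed to 6148 and 5735 CPM in AKK 1 and AKK 2 and to 3348 and 6609 CPM in PBS 1 and PBS 2. Krt8, Krt18 and Krt19 made up most of these sums. Epcam lay higher in both AKK tumours, at 2.25 and 3.37 CPM against 0.131 and 0.0210 CPM in PBS. Gpc3 and Mki67 lay lower in both, Gpc3 at 0.0177 and 0.0685 CPM in AKK against 0.731 and 0.336 CPM in PBS. Markers of several other cell types differed between the groups or stood out in 1 library. The 7 skeletal muscle markers summed to 2.37 and 2.60 CPM in AKK against 221 and 7.07 CPM in PBS 1 and PBS 2. The 10 hepatocyte markers summed to 535 and 251 CPM in AKK against 76.0 and 171 CPM in PBS. Hnf4a made up most of the PBS sums, at 48.7 and 119 CPM in AKK against 74.9 and 168 CPM in PBS. The other 9 lay above both PBS tumours in both AKK tumours, against 26.7% of all genes tested. One of them, the fibrinogen gene Fgb, at 75.4 and 50.8 CPM in AKK against 0.112 and 0.189 CPM in PBS, was the 1 gene of all that edgeR called (adjusted p = 0.0160). Their part in the chemokine values was not tested. In bulk samples, fewer cells of a type and less RNA per cell cannot be told apart.

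Among the ligands, the monocyte attractant Ccl2, the CCR8 ligand Ccl1 and the mucosal chemokine Cxcl17 lay higher in both AKK tumours than in both PBS tumours, and the macrophage chemokines Ccl6 and Ccl24 lay lower. By mean CPM, Ccl6 was 2.31-fold lower in AKK and Ccl2 2.73-fold higher. The ligands of CXCR2 and CXCR3 differed more between the tumours of a group than between the groups. None of these differences passed the threshold. Of the 52 genes, 40 had enough reads for the test, edgeR's quasi-likelihood test with Benjamini-Hochberg adjustment over 17479 genes. It called 0 of 40 at an adjusted p of 0.05, where it called 0.00572% of all genes. At an unadjusted p under 0.05 there were 5 of 40, 3 higher and 2 lower in AKK, a share of 12.5% against 15.3% of all genes tested (6.7% higher and 8.62% lower). Of the 3 higher, Ccl1 and Cxcl17 reached the test through their AKK reads alone, the group where they were high. DESeq2 called 3 (Cxcl17 and Ccl2 higher, Ccl6 lower) of the 41 to which it gave an adjusted p, or 7.32%, against 4.81% of all genes (2.03% higher and 2.78% lower). With every gene kept that had any reads, edgeR called Cxcl17 higher and Ccl6 lower among 52, or 3.85%. Over the 28148 genes kept in that way it called 2.24% (1.03% higher and 1.21% lower). The count over the family was thus near the background and is no result about chemokines as a set.

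The groups did not overlap in 15 of the 40 tested genes, 9 higher and 6 lower in AKK, which is 37.5% against 51.4% of all genes (26.7% higher and 24.7% lower). The 9 higher genes were Ccl1, Ccl2, Ccl3, Ccl22, Ccl27a, Cxcl17, Ccr2, Ccr7 and Cxcr2, and the 6 lower genes included Ccl6, Ccl24, Ccl25, Ackr2 and Ackr3. By sign alone 21 were positive and 19 negative, with a median log2 fold change of 0.14 against 0.02 over all genes tested. Of the 40, Ccl1 and Cxcl17 passed the filter on low counts through their AKK reads alone and Xcr1 through its PBS reads alone. The other 12 genes, with 10 to 27 reads each, were not tested.

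**Figure D1:**
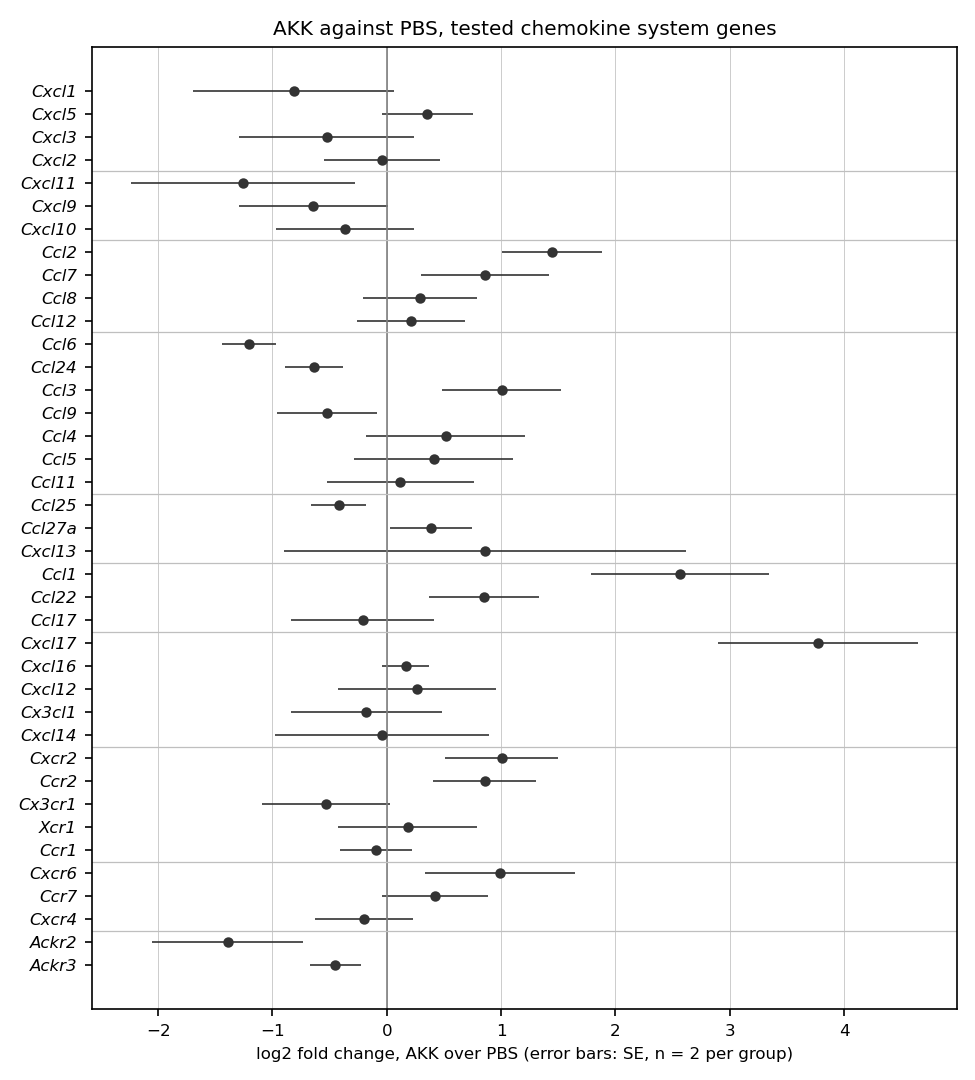
Log2 fold change of AKK over PBS (x axis) for 39 tested genes, grouped by role between grey lines and ordered by p within a role. Points are fitted values and bars are standard errors with 2 libraries per group. Cxcl17 (3.77) and Ccl1 (2.56) lie farthest to the right, and Ackr2 (-1.39), Cxcl11 (-1.26) and Ccl6 (-1.21) farthest to the left.

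CCR2 is the receptor by which monocytes leave the bone marrow and enter tissue. The 4 genes grouped by textbook receptor use as its ligands all had a positive log2 fold change and were all highest in AKK 1. Receptor use in mice was not measured here. Ccl2 (ENSMUSG00000035385.5) read 16.7 and 7.76 CPM in AKK 1 and AKK 2 against 4.12 and 4.86 CPM in PBS 1 and PBS 2. The groups did not overlap, and the AKK tumours differed from each other 2.16-fold. The log2 fold change was 1.45 (SE 0.44, edgeR adjusted p = 0.251, n = 2 per group). DESeq2 gave an adjusted p of 0.0342, and over all alternatives the adjusted p ran from 0.0342 to 0.635. Without AKK 1 the log2 fold change was 0.79. Ccl7 read 3.38 and 1.70 CPM in AKK against 1.76 and 1.03 CPM in PBS. Ccl8 read 5.91 and 2.64 CPM in AKK against 3.13 and 3.87 CPM in PBS. Ccl12, a mouse ligand of CCR2 close to CCL2, read 2.62 and 1.68 CPM in AKK against 2.14 and 1.58 CPM in PBS. In these 3 the groups overlapped: AKK 2 lay between the PBS values for Ccl7 and Ccl12 and below both for Ccl8. The median of the 4 ligands was 0.57, and 0.067 without AKK 1.

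The receptor gene Ccr2 (ENSMUSG00000049103.13) read 5.47 and 3.89 CPM in AKK 1 and AKK 2 against 3.24 and 1.91 CPM in PBS 1 and PBS 2. Both AKK tumours lay above both PBS tumours, with a log2 fold change of 0.86 (SE 0.45, edgeR adjusted p = 0.409). It was 0.50 without PBS 2 and 1.28 without PBS 1. Beside these genes stood those of monocytes and of Kupffer cells, macrophages that reside in liver sinusoids. The monocyte marker Cd14 read 40.9 and 30.3 CPM in AKK against 17.1 and 19.8 CPM in PBS, and Ly6c2, a marker of classical monocytes, had 32 and 5 reads in AKK against 1 and 4 in PBS. Fcgr1 and Chil3 of the same list lay lower in both AKK tumours, Chil3 at 0.283 and 0.325 CPM in AKK against 5.30 and 0.883 CPM in PBS (log2 fold change -3.34, SE 0.92, edgeR adjusted p = 0.235, DESeq2 adjusted p = 0.00410). All 6 monocyte markers together, of which Plac8 made up most, summed to 472 and 342 CPM in AKK against 182 and 450 CPM in PBS. The 6 Kupffer cell markers summed to 18.9 and 2.93 CPM in AKK against 1.69 and 0.547 CPM in PBS, with AKK 1 highest as for Ccl2. Of the 6, 5 lay above both PBS tumours in both AKK tumours, against 26.7% of all genes tested. Their part in the values of Ccl2 and Ccr2 was not tested.

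**Figure D2:**
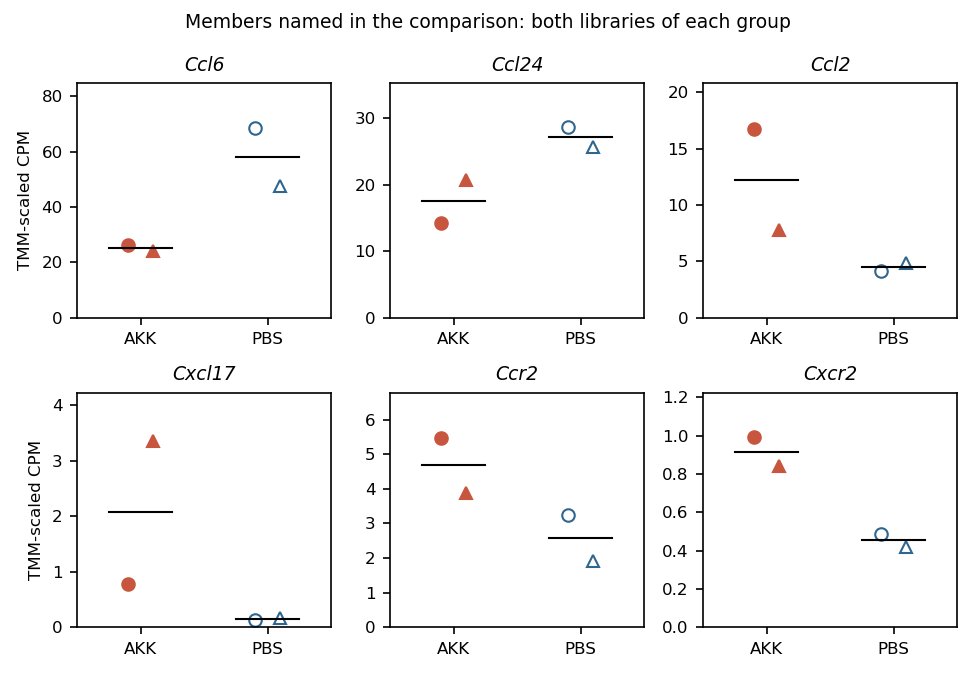
TMM-scaled CPM (y axis, from 0) of 6 genes in the AKK tumours (filled red) and the PBS tumours (open blue), with circles for replicate 1, triangles for replicate 2 and a line at the mean of the 2. In each of the 6 the groups do not overlap: Ccl6 and Ccl24 are lower in AKK, and Ccl2, Cxcl17, Ccr2 and Cxcr2 higher.

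Macrophage chemokines and eotaxins, most of which bind CCR1 or CCR3, split in direction. Ccl6, a myeloid chemokine known from rodents that acts on CCR1, had the smallest p of all 40 genes. Ccl6 (ENSMUSG00000018927.3) read 26.3 and 24.1 CPM in AKK 1 and AKK 2 against 68.4 and 47.7 CPM in PBS 1 and PBS 2. The AKK tumours differed from each other 1.09-fold, and the log2 fold change was -1.21 (SE 0.24, edgeR adjusted p = 0.182). It was called by DESeq2 (adjusted p = 0.00381) and by edgeR with no low-count filter (0.0210), and the adjusted p ran to 0.615 when AKK 1 was left out. Ccl24, the eotaxin that alternatively activated macrophages make, read 14.2 and 20.7 CPM in AKK against 28.7 and 25.6 CPM in PBS, again without overlap (log2 fold change -0.64, SE 0.26, edgeR adjusted p = 0.324). Ccl9, a ligand of CCR1 that neighbours Ccl6, read 9.93 and 6.49 CPM in AKK against 15.8 and 7.74 CPM in PBS. Here AKK 1 lay between the PBS values.

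The inflammatory chemokine genes Ccl3, Ccl4 and Ccl5 had positive log2 fold changes. Ccl3 read 2.49 and 1.35 CPM in AKK against 0.843 and 1.07 CPM in PBS, with no overlap (log2 fold change 1.00, SE 0.52, edgeR adjusted p = 0.404). Ccl4 read 1.70 and 0.497 CPM in AKK against 0.881 and 0.652 CPM in PBS. Ccl5, which T cells and NK cells make as well as macrophages, read 2.05 and 0.685 CPM in AKK against 0.694 and 1.37 CPM in PBS. In both genes AKK 1 was the highest library, and AKK 2 was the lowest. Ccl11, the eotaxin of fibroblasts and epithelium, read 3.57 and 2.76 CPM in AKK against 4.52 and 1.30 CPM in PBS, so both AKK values lay between the PBS values.

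Of the receptors for these ligands, Ccr1 read 26.9 and 16.7 CPM in AKK against 27.3 and 19.2 CPM in PBS, which overlap. Ccr3, the receptor of eosinophils for eotaxins, had 1 and 2 reads in AKK against 3 and 4 in PBS and was not tested. The direction of Ccl6 and Ccl24 was that of most macrophage markers. Of these, 7 of 8 lay below both PBS tumours in both AKK tumours, against 24.7% of all genes tested. These 8 markers summed to 578 and 582 CPM in AKK against 853 and 675 CPM in PBS. Adgre1, the gene of F4/80, read 2.53 and 4.69 CPM in AKK against 10.2 and 6.06 CPM in PBS, and Csf1r, the receptor gene for macrophage colony-stimulating factor, 23.5 and 28.1 CPM against 61.5 and 35.0 CPM. The part of macrophage number in these values was not tested.

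**Figure D3:**
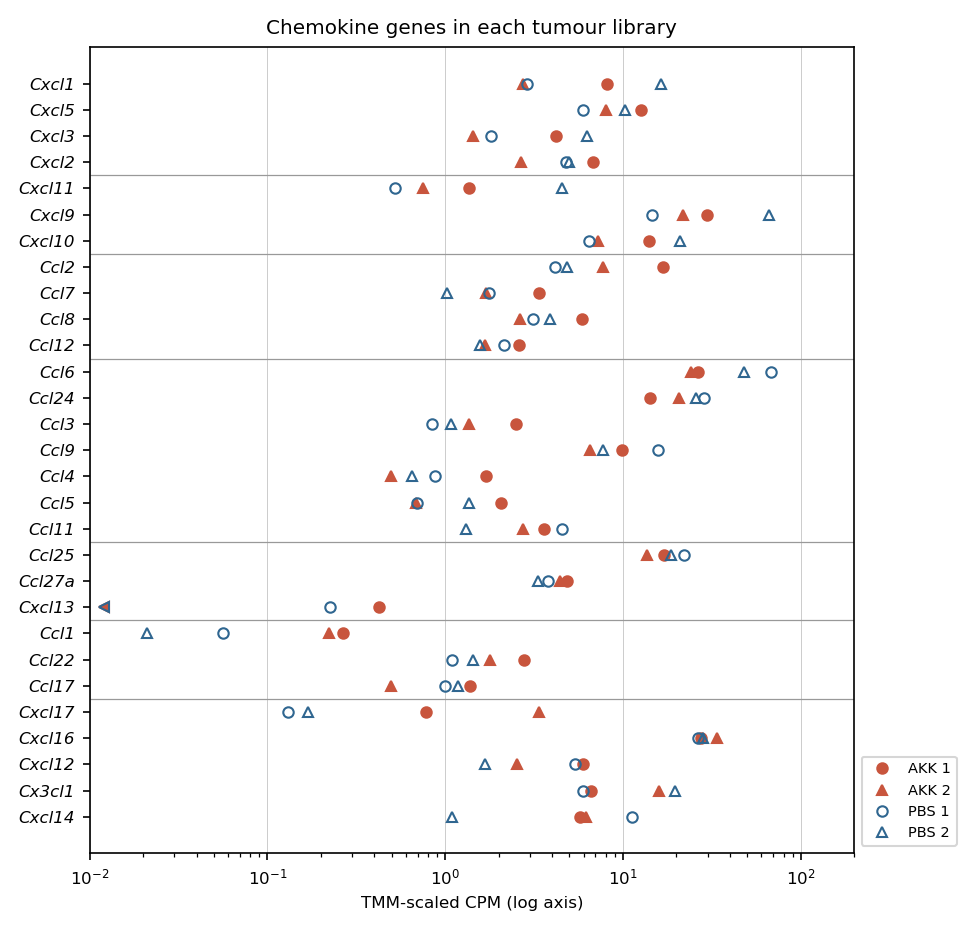
TMM-scaled CPM (x axis, log scale) of the 29 tested ligand genes in AKK 1 and AKK 2 (filled red) and PBS 1 and PBS 2 (open blue), with grey lines between role groups and left-pointing triangles at the edge for 0 reads. In Ccl6 both AKK values lie left of both PBS values, while in Cxcl9, Cxcl10 and Cxcl11 both AKK values lie between PBS 1 and PBS 2.

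The ligands of CXCR2, which draw neutrophils and carry the amino acids ELR before the CXC motif, overlapped between the groups in all 4 genes. Overlap was common, in 8488 of all 17479 genes tested. The start regions of 3 of the ligand genes are shown because they share the same 9 bases. The sequences are the 250 bases before the start, from RefSeq on GRCm38.p6 and on the gene's strand, with the match to the NF-kB motif GGAATTTCC in capitals. They lie at chr5:90890995-90891244 (Cxcl1, plus strand), chr5:90903649-90903898 (Cxcl2, plus strand) and chr5:90785851-90786100 (Cxcl3, plus strand).
Cxcl1: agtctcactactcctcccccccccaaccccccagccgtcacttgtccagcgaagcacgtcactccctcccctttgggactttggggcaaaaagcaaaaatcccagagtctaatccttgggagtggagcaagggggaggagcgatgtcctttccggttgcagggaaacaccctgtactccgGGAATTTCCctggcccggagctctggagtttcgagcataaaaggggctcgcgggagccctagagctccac
Cxcl2: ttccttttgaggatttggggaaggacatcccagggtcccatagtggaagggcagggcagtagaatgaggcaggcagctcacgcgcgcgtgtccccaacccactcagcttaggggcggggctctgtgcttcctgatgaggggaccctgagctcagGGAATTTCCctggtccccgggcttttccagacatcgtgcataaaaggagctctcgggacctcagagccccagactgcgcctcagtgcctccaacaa
Cxcl3: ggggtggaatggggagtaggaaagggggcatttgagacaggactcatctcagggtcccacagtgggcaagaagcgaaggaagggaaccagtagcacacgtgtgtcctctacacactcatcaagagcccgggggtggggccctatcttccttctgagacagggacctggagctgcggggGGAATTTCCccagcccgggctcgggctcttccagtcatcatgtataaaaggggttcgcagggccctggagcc
The 9 bases end 61 bases before the start in Cxcl1, 87 in Cxcl2 and 63 in Cxcl3. Searched on both strands, they were in 94 of the 32851 start regions of the RefSeq table (0.286%). Of the 38 chemokine and receptor genes that the table holds, 5 had them, the others being Ccr3 and Cxcl10. A match is a description of letters and not of factor binding.

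Cxcl1 and Cxcl3 shared a pattern over the libraries, and Cxcl2 did not follow it. Cxcl1 read 8.17 and 2.74 CPM in AKK 1 and AKK 2 against 2.89 and 16.3 CPM in PBS 1 and PBS 2. Cxcl3 read 4.18 and 1.44 CPM in AKK against 1.80 and 6.29 CPM in PBS. In both genes PBS 2 was highest, AKK 1 next, and AKK 2 and PBS 1 low, so that PBS 2 exceeded PBS 1 by 5.65-fold in Cxcl1 and 3.49-fold in Cxcl3. Cxcl2 read 6.76 and 2.67 CPM in AKK against 4.76 and 4.94 CPM in PBS, with the PBS tumours nearly equal. Cxcl5 read 12.7 and 8.07 CPM in AKK against 5.98 and 10.3 CPM in PBS. The median log2 fold change of the 4 was -0.28, with 0.68 without PBS 2 and -1.17 without AKK 1.

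The receptor gene Cxcr2 lay higher in AKK, at 0.991 and 0.839 CPM against 0.487 and 0.421 CPM in PBS, from 56 and 49 reads against 26 and 20 (log2 fold change 1.01, SE 0.49, edgeR adjusted p = 0.384). The groups did not overlap for Cxcr2, while they did for its ligands. Neutrophil markers were low throughout. Csf3r, the receptor gene for granulocyte colony-stimulating factor, read 6.40 and 3.72 CPM in AKK against 3.15 and 2.42 CPM in PBS, and S100a8 read 1.65 and 0.993 CPM against 0.843 and 0.505 CPM. Retnlg of the same list lay the other way, with 3 and 1 reads in AKK against 23 and 8 in PBS. Ly6g, the defining surface marker of mouse neutrophils, had 0 reads in all 4 libraries, and the 8 markers summed to 11.3 and 5.89 CPM in AKK against 6.00 and 3.74 CPM in PBS. Their part in Cxcr2 was not tested.

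The ligands of CXCR3 are induced by interferon gamma and draw activated T cells and NK cells. The 250 bases before the start of Cxcl10 are shown because they hold both the motif AANNGAAA of interferon regulatory factors and the NF-kB motif, in capitals in that order. They lie at chr5:92348890-92349139 (minus strand) of GRCm38.p6, from RefSeq.
Cxcl10: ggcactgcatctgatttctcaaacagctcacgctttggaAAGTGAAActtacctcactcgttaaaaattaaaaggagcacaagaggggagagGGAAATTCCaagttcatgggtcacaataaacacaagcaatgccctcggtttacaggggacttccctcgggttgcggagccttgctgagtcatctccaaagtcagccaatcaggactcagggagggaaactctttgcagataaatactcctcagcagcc
The first match ends 203 and the second 149 bases before the start, and the second is on the other strand. On either strand AANNGAAA was in 21.3% of all start regions in the table and in 7 of the 38 genes (18.4%), so it is common. The motifs do not overlap each other here. The same window of its neighbour Cxcl9 holds neither set of letters. It does hold GGGATTTCC, which is close to GGAATTTCC but was not part of the search. Variants of the NF-kB motif were not searched, so the lack of a match in Cxcl9 does not show the lack of an NF-kB site.

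Cxcl9, Cxcl10 and Cxcl11 were each highest in PBS 2 and lowest in PBS 1, with both AKK tumours between them. Cxcl9 (ENSMUSG00000029417.9) read 29.9 and 21.8 CPM in AKK 1 and AKK 2 against 14.6 and 66.3 CPM in PBS 1 and PBS 2. Cxcl10 read 14.03 and 7.26 CPM in AKK against 6.47 and 21.0 CPM in PBS. Cxcl11, annotated as a polymorphic pseudogene since C57BL/6 mice carry a disrupted copy, read 1.36 and 0.754 CPM in AKK against 0.525 and 4.54 CPM in PBS. PBS 2 exceeded PBS 1 by 4.54-fold in Cxcl9, 3.24-fold in Cxcl10 and 8.65-fold in Cxcl11, against 1.37-, 1.93- and 1.81-fold between AKK 1 and AKK 2. The direction of the group difference turned on the PBS tumour: the median log2 fold change of the 3 was -0.64, and it was 0.79 without PBS 2 and -1.36 without PBS 1.

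The transcription factor gene Irf1, which interferon gamma induces, read 102 and 101 CPM in AKK against 56.1 and 128 CPM in PBS. It had the same lowest and highest library as the CXCR3 ligands. Ifng itself read 0.407 and 0.274 CPM in AKK against 0.0562 and 0.421 CPM in PBS. The receptor gene Cxcr3 had 7 and 1 reads in AKK against 5 and 2 in PBS and was not tested. T cell markers, 8 genes, summed to 15.0 and 8.65 CPM in AKK against 4.35 and 8.45 CPM in PBS, lowest in PBS 1 like the CXCR3 ligands but highest in AKK 1. NK cell markers, 7 genes, summed to 14.9 and 15.7 CPM in AKK against 12.5 and 17.4 CPM in PBS. Eomes was the largest of them in each library, at 8.02 and 10.8 CPM in AKK against 6.37 and 5.57 CPM in PBS. Of the 6 tested, Eomes lay above both PBS tumours in both AKK tumours, and Prf1 and Gzma lay below. The part of T cells and NK cells in the values of the CXCR3 ligands was not tested.

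**Figure D4:**
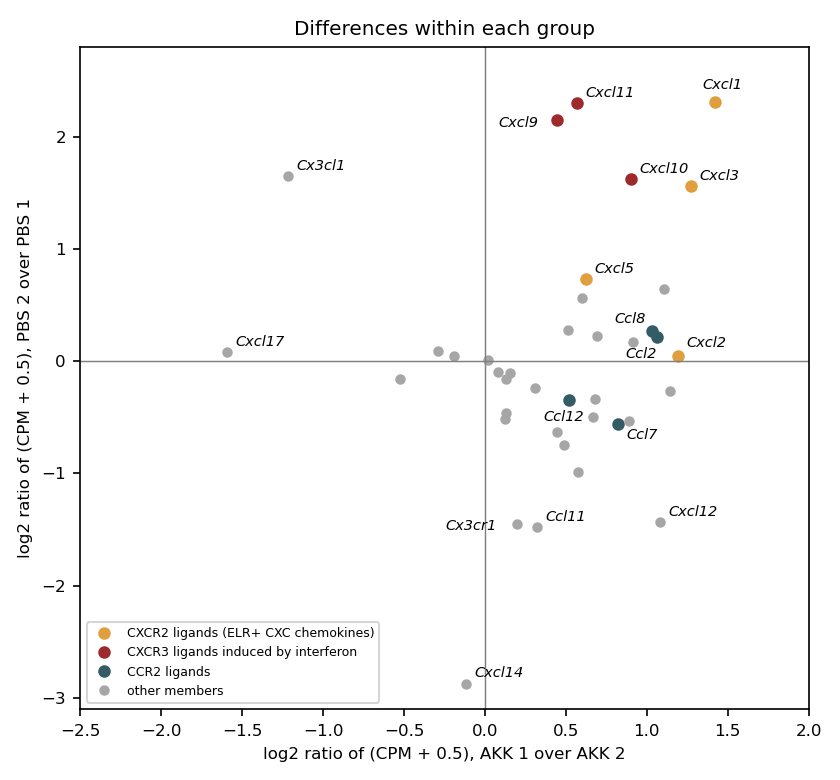
Log2 ratio of AKK 1 over AKK 2 (x axis) and of PBS 2 over PBS 1 (y axis), both of CPM plus 0.5, for 39 tested genes, with 3 role groups in colour. The 3 CXCR3 ligands and Cxcl1 and Cxcl3 lie high at the upper right, higher in PBS 2 and in AKK 1, Cxcl14 lies at the bottom and Cxcl17 at the left.

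Among the 3 genes grouped as ligands of CCR4 and CCR8, receptors of regulatory and type 2 helper T cells, Ccl1 and Ccl22 lay higher in both AKK tumours. Over all genes tested, 26.7% lay above both PBS tumours in both AKK tumours. Ccl1 (ENSMUSG00000020702.13), a CCR8 ligand, had 15 and 13 reads in AKK 1 and AKK 2 against 3 and 1 in PBS 1 and PBS 2, or 0.265 and 0.223 CPM against 0.0562 and 0.0210 CPM. The log2 fold change was 2.56 (SE 0.78, edgeR adjusted p = 0.251), from PBS counts at or under the floor of 3 reads. Ccl1 passed the filter on low counts through its AKK reads alone. Ccl22 read 2.76 and 1.78 CPM in AKK against 1.09 and 1.43 CPM in PBS (log2 fold change 0.85, SE 0.48, edgeR adjusted p = 0.433). Ccl17, which also binds CCR4, read 1.38 and 0.497 CPM in AKK against 0.993 and 1.18 CPM in PBS, with the AKK tumours on either side of PBS. Ccr8 had 7 and 4 reads in AKK against 0 and 3 in PBS, and Ccr4 had 4 and 11 against 7 and 5. Both were under the filter.

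Cxcl17 (ENSMUSG00000060188.6), a chemokine of mucosal epithelium, had the largest log2 fold change of the 40 genes. It passed the filter on low counts through its AKK reads alone, the group where it was high. It had 44 and 196 reads in AKK 1 and AKK 2 against 7 and 8 in PBS 1 and PBS 2, or 0.779 and 3.36 CPM against 0.131 and 0.168 CPM. Both AKK tumours lay above both PBS tumours, but AKK 2 exceeded AKK 1 by 4.31-fold. The log2 fold change was 3.77 (SE 0.87, edgeR adjusted p = 0.195). DESeq2 (adjusted p = 0.00173) and edgeR with no low-count filter (0.0189) called it, and the adjusted p ran to 0.615 when AKK 1 was left out. Without AKK 2 the log2 fold change was 2.36.

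The membrane-bound chemokines differed from each other. Cxcl16, the ligand of CXCR6, read 27.4 and 33.6 CPM in AKK against 26.3 and 28.1 CPM in PBS, a range of 4 close values. Its receptor gene Cxcr6, of tissue-resident T cells and NKT cells, read 1.22 and 0.634 CPM in AKK against 0.281 and 0.652 CPM in PBS (log2 fold change 0.99, SE 0.65, edgeR adjusted p = 0.488). Cx3cl1, or fractalkine, read 6.60 and 15.98 CPM in AKK against 5.92 and 19.7 CPM in PBS, so replicate 2 of each group was high and replicate 1 low. Its receptor gene Cx3cr1, of monocytes and macrophages, read 4.58 and 3.94 CPM in AKK against 9.24 and 3.07 CPM in PBS, and the high library was PBS 1.

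Cxcl12, the stromal chemokine that holds CXCR4-bearing cells in tissue, read 5.94 and 2.55 CPM in AKK against 5.40 and 1.68 CPM in PBS. Cxcr4 read 5.13 and 3.01 CPM in AKK against 5.27 and 4.08 CPM in PBS. Ackr3, which binds CXCL12 and takes it up, read 92.8 and 84.9 CPM in AKK against 141 and 102 CPM in PBS (log2 fold change -0.45, SE 0.22, edgeR adjusted p = 0.384). The groups did not overlap for Ackr3, while they did for Cxcl12 and Cxcr4. Cxcl14 read 5.70 and 6.22 CPM in AKK against 11.2 and 1.09 CPM in PBS, a 10.2-fold excess of PBS 1 over PBS 2 with both AKK tumours between. The 9 markers of fibroblasts and stellate cells summed to 970 and 1457 CPM in AKK against 2124 and 747 CPM in PBS, with PBS 1 highest and PBS 2 lowest as for Cxcl14. Their part in Cxcl14 was not tested.

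Xcl1, made by NK cells and CD8 T cells, had 11 and 5 reads in AKK against 2 and 2 in PBS and was not tested. Its receptor gene Xcr1, of cross-presenting dendritic cells, had 10 and 16 reads in AKK against 10 and 10 in PBS (log2 fold change 0.18, SE 0.61, edgeR adjusted p = 0.901). The AKK values of Xcr1 lay on either side of the PBS values in CPM.

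**Figure D5:**
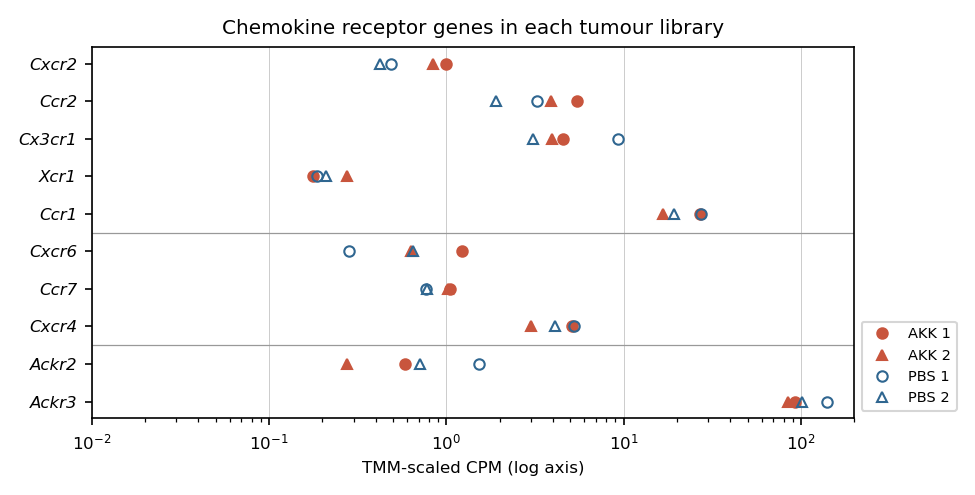
TMM-scaled CPM (x axis, log scale) of 10 tested receptor genes in AKK 1 and AKK 2 (filled red) and PBS 1 and PBS 2 (open blue), with grey lines between myeloid, lymphoid and atypical receptors. Cxcr2, Ccr2 and Ccr7 have both AKK values to the right of both PBS values, and Ackr2 and Ackr3 to the left.

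Chemokines of lymphoid tissue and mucosa were few. Ccl25, the CCR9 ligand of thymus and small intestine, read 16.9 and 13.6 CPM in AKK against 22.1 and 18.7 CPM in PBS (log2 fold change -0.42, SE 0.24, edgeR adjusted p = 0.439), lower in both AKK tumours. Ccl27a, the CCR10 ligand known from skin, read 4.87 and 4.40 CPM in AKK against 3.77 and 3.32 CPM in PBS, higher in both AKK tumours but uncertain for its copies. Cxcl13, which draws B cells, had 24 and 0 reads in AKK against 12 and 0 in PBS, so each group held 1 tumour with reads and 1 without. Ccl20, the CCR6 ligand, had 5 and 2 reads in AKK against 0 and 9 in PBS. The 8 markers of B and plasma cells summed to 61.7 and 25.0 CPM in AKK against 5.66 and 5.47 CPM in PBS.

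Most receptors of lymphocytes had too few reads for the test. Ccr7, which guides T cells and dendritic cells to lymph nodes, read 1.04 and 1.03 CPM in AKK against 0.768 and 0.778 CPM in PBS, without overlap (log2 fold change 0.42, SE 0.46, edgeR adjusted p = 0.677). Its ligands Ccl19 and Ccl21a had 0 reads. Cxcr5, the B cell receptor for CXCL13, had 11 and 6 reads in AKK against 1 and 3 in PBS. Ccr6 had 4 and 5 reads in AKK against 0 and 3 in PBS, Ccr9 4 and 3 against 2 and 6, and Ccr10 4 and 2 against 3 and 1. None of the last 4 could be tested.

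The 2 tested atypical receptors, Ackr2 and Ackr3, lay lower in both AKK tumours, as did 24.7% of all genes tested. Ackr2, which removes inflammatory CC chemokines, read 0.584 and 0.274 CPM in AKK against 1.54 and 0.715 CPM in PBS, from 33 and 16 reads against 82 and 34 (log2 fold change -1.39, SE 0.66, edgeR adjusted p = 0.374). The log2 fold change was -0.74 without PBS 1 and -2.03 without AKK 1. Both AKK values lay below both PBS values, as for Ackr3. For Ackr3 the PBS tumours differed from each other by more than the group means did, on the log2(CPM + 0.5) scale. Ackr1, the Duffy antigen receptor of venular endothelium, had 1 and 3 reads in AKK against 3 and 4 in PBS, and Ackr4, which removes CCL19 and CCL21, had 1 and 0 against 15 and 1. These 2 were not tested, and 15 of the 17 reads of Ackr4 were in PBS 1. The 7 endothelial markers summed to 28.7 and 27.9 CPM in AKK against 92.6 and 63.6 CPM in PBS. Of the 7, 6 lay below both PBS tumours in both AKK tumours, against 24.7% of all genes tested. Their part in the atypical receptors was not tested.

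Genes that lie side by side did not all share a pattern. By the gene order of RefSeq on GRCm38.p6, 6 neighbourhoods hold 3 or more of the genes, with gaps of at most 200000 bases. Ccl2, Ccl7, Ccl11, Ccl12, Ccl8 and Ccl1 form 1 of them, and all 6 had a positive log2 fold change, 0.12 to 2.56. In a second one, Ccl6 and Ccl9 had negative values and Ccl3, Ccl4 and Ccl5 positive values. Cxcl9, Cxcl10 and Cxcl11 shared both sign and library pattern, as given above. Of the tested receptor genes next to each other, Cxcr6, Xcr1 and Ccr2 were positive and Ccr1 negative. Sign alone is a description here, since for most of these genes the groups overlapped.

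Per kilobase of exon, by gene models of GENCODE M21 that may differ from those the authors used, the highest ligand was Ccl2 in AKK 1, Ccl24 in AKK 2 and Ccl6 in both PBS tumours. CPM per kilobase of Ccl6 was 14.6 and 13.4 in AKK against 38.1 and 26.6 in PBS. Ccl2 was at 14.7 and 6.82 CPM per kilobase in AKK against 3.62 and 4.27 in PBS, above Cxcl9 in AKK 1 (9.90) and below Cxcl9 in AKK 2 (7.24), PBS 1 (4.84) and PBS 2 (22.0). Ackr3 was the highest of the receptors and of all 52 genes on this scale in each library, at 27.7 and 25.3 CPM per kilobase in AKK against 42.1 and 30.4 in PBS. Ccr1 followed among receptors, at 9.49 and 5.91 in AKK against 9.63 and 6.78 in PBS.

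Over the 40 tested genes the spread within a group was often as wide as the difference between groups. In 26 of 40, 65% against 64.7% of all genes tested, the larger of the 2 within-group differences exceeded the difference of the group means on the log2(CPM + 0.5) scale. AKK 1 was the highest library in 19 genes, PBS 1 in 12, PBS 2 in 6 and AKK 2 in 3. The same shares over all genes tested were 35.3% for AKK 1, 24.5% for PBS 1, 22.0% for PBS 2 and 18.2% for AKK 2. The 6 genes highest in PBS 2 were Cxcl1, Cxcl3, Cxcl9, Cxcl10, Cxcl11 and Cx3cl1. The median size of the difference between AKK 1 and AKK 2 was 0.57 for these 40 genes and 0.32 for all genes on that scale, and between PBS 1 and PBS 2 it was 0.48 and 0.22.

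Other genes of the chemokine system did not pass the threshold. Of 13 genes outside the symbol rule 12 were tested and 0 called in either direction by edgeR, with 1 at an unadjusted p under 0.05, against 15.3% of all genes tested. This was Rarres2, the gene of the attractant chemerin, at 8.05 and 3.19 CPM in AKK against 2.10 and 0.925 CPM in PBS (log2 fold change 1.89, SE 0.65, edgeR adjusted p = 0.286). Its receptor gene Cmklr1, of macrophages and dendritic cells, read 2.37 and 7.11 CPM in AKK against 12.2 and 8.47 CPM in PBS (log2 fold change -1.12, SE 0.56, edgeR adjusted p = 0.389). The platelet chemokine gene Pf4 read 6.30 and 2.57 CPM in AKK against 9.11 and 3.01 CPM in PBS. Mif, a cytokine that also binds CXCR2 and CXCR4, read 297 and 162 CPM in AKK against 155 and 195 CPM in PBS.

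Of 28 genes of signalling below the receptors 27 were tested, 0 were called by edgeR and 1 had an unadjusted p under 0.05, again against 15.3% of all genes. That gene, Arrb1, a beta-arrestin that ends G protein signalling, read 114 and 103 CPM in AKK against 146 and 209 CPM in PBS (log2 fold change -0.71, SE 0.24, edgeR adjusted p = 0.274). Rgs1, a brake on G protein signalling in lymphocytes, read 6.99 and 10.6 CPM in AKK against 24.3 and 10.9 CPM in PBS. Of 18 inducers and transcription factors of chemokine genes 17 were tested and 0 called by edgeR, with 1 at an unadjusted p under 0.05 against the same 15.3%. This was the alarmin gene Il33, at 480 and 351 CPM in AKK against 282 and 253 CPM in PBS (log2 fold change 0.63, SE 0.24, edgeR adjusted p = 0.313). Tnf read 1.10 and 0.291 CPM in AKK against 0.0937 and 0.442 CPM in PBS, and Il1b 17.0 and 14.4 CPM against 13.4 and 4.90 CPM.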

How the data were processed

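RNA of liver tumours was sequenced in 4 libraries as pairs of 151 bp reads, per the labels' protocols. The authors deposited raw counts of reads per gene, in STAR's output format. STAR 2.5.2 and RSEM 1.2.31 are named in the submitters' processing notes, without a role. Genome build and annotation: not given in the sources used here. Counts on the gene's own strand were used, which held 95.4 to 96.2% of reads assigned by strand. Entries that name no gene were left out: 8.97 to 12.3% unmapped, 4.20 to 6.66% multimapping, 11.4 to 13.5% outside genes and 1.18 to 1.37% ambiguous reads. Of 48526 identifiers, 48058 matched a symbol.

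AKK and PBS were compared in R 4.3.3 by two-sided quasi-likelihood F tests of edgeR 4.0.16 (legacy fit, TMM, filterByExpr, group as the only term), tested on simulated data. Log2 fold changes are AKK minus PBS with a prior count of 0.125, and standard errors (SE) come from the F statistic. Alternatives, with DESeq2 1.42.0 and limma 3.58.1 (voom), were other scalings, filters, the unstranded counts, the replicate block, each library left out, the edgeR 4 form and a threshold of 0.1. Genes, lists and motifs were chosen with earlier results of these data known. Of the 12 genes with the smallest p, 11 are given with full statistics (1 gene that counts include is not reported here), as are the leading genes of each role group and list; the single markers, Pf4, Mif, Tnf, Il1b, Rgs1, Irf1 and Ifng were picked after their values were seen.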

Additional observations from a re-analysis of the deposited data

How the results depend on the processing

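The count of genes called over all genes, 1, was 3 with upper-quartile scaling, 631 without a filter on low counts, 908 with DESeq2, 0 with limma-voom, 4 with the edgeR 4 form and 3 at a threshold of 0.1, and 0 to 324 with 1 library left out, namely 0 without AKK 1 or AKK 2, 279 without PBS 1 and 324 without PBS 2. With the replicate number as a block it was 209, with 0 chemokine genes. The deviations of same-numbered libraries correlated at -0.037 over genes. This single value cannot decide whether same-numbered libraries share a batch, which the labels do not give. The count of chemokine genes called, 0, was 2 without a filter, 3 with DESeq2 and 0 to 0 with 1 library left out. A lone library was then assumed to vary like the others. With 1 library left out, the median log2 fold change ran from -0.39 to 0.31 (all tested members), -1.17 to 0.68 (CXCR2 ligands), -1.36 to 0.79 (CXCR3 ligands induced by interferon), 0.067 to 1.01 (CCR2 ligands), -0.58 to 0.29 (macrophage chemokines and eotaxins), -0.14 to 0.48 (lymphoid tissue and mucosal chemokines), 0.51 to 1.13 (CCR4 and CCR8 ligands), 0.0056 to 1.33 (other ligands), -0.060 to 0.32 (myeloid cell receptors), 0.40 to 0.43 (lymphoid cell receptors). With a filter of 1 CPM in 2 libraries, which tests fewer genes, the median was -0.016 for lymphoid tissue and mucosal chemokines, 0.33 for ligands of CCR4 and CCR8, -0.30 for myeloid and 0.11 for lymphoid cell receptors. With unstranded counts it was 0.25 for myeloid and 0.23 for lymphoid cell receptors. Apart from leaving out libraries, 2 genes changed sign, the cause not tested: Cxcl2 (0.037 with upper-quartile scaling) and Cxcl14 (0.72 with the replicate block, 0.71 with limma-voom). With 1 library left out, 18 of 40 genes kept their sign and 22 did not, with log2 fold changes of -2.11 to 0.97 (Cxcl11), -0.98 to 0.080 (Ccl9), -1.36 to 0.79 (Cxcl9), -1.15 to 0.47 (Cx3cr1), -1.80 to 0.88 (Cxcl1), -0.0036 to 0.76 (Cxcl5), -0.62 to 1.14 (Ccl4), -1.48 to 0.60 (Cxcl3), -0.98 to 0.68 (Cxcl10), -0.58 to 0.99 (Ccl5), -0.40 to 0.75 (Ccl8), -0.13 to 6.53 (Cxcl13), -0.63 to 0.13 (Cxcr4), -0.14 to 0.49 (Ccl12), -0.47 to 1.33 (Cxcl12), -1.12 to 0.34 (Ccl17), -0.17 to 0.46 (Xcr1), -0.47 to 0.20 (Ccr1), -0.96 to 0.91 (Cx3cl1), -0.54 to 1.27 (Ccl11), -0.86 to 0.47 (Cxcl2), -0.94 to 2.44 (Cxcl14). Of those that kept it, values ran over 2.04 to 3.40 (Ccl1), 0.50 to 1.37 (Ccl3), 0.28 to 1.29 (Ccl7), 0.51 to 1.13 (Ccl22), -0.94 to -0.39 (Ccl24), -0.59 to -0.28 (Ccl25), 0.87 to 1.12 (Cxcr2), 0.45 to 1.68 (Cxcr6), -0.70 to -0.20 (Ackr3). Depth limits the 12 untested genes, with 27 reads or fewer each.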
